A study of Mus musculus with 19 samples.

Results

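CpG methylation of visceral yolk sac endoderm (ysE), the outer epithelial layer of the mouse visceral yolk sac, was compared with that of fetal liver at E12.5 by whole genome bisulfite sequencing (WGBS). The libraries were chosen by their labels and numbered 4 of the 19 samples of the series and 4 of its 6 WGBS libraries. The study asked whether cystic embryoid bodies (EBs) grown from ES cells can stand in for ysE, and ysE and fetal liver were its extra-embryonic and embryonic references. Each tissue was taken from F1 embryos of both reciprocal crosses of CAST/EiJ and FVB/N mice, labelled CastxFVB (CxF) and FVBxCast (FxC), with 1 library per tissue and cross and no further treatment. Every sample was DNA of a whole litter, so a value is a mean over the cells and embryos of that litter, and both libraries of a tissue differ in cross as well as in litter. The ysE had been separated from the mesoderm by hand after Dispase treatment, whereas the liver was taken whole. Expression came from RNA-seq of the same tissues and stage but of FVB mice, with 1 library of E12.5 ysE from a non-stranded cDNA protocol and 2 of liver from ScriptSeq, so that protocol and tissue cannot be told apart there. H3K4me3 peaks came from the whole E12.5 visceral yolk sac of FVB mice, and 2 WGBS libraries of d15 cystic EBs (ES clones CF C2 and FC A2) served as a further reference.

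In mammals DNA methylation sits mostly on cytosines followed by guanine (CpGs), where Dnmt3a and Dnmt3b set it and Dnmt1 copies it after replication. Most of the genome outside active promoters is methylated in embryonic tissues, the bodies of transcribed genes in particular, while extra-embryonic lineages are known to carry less methylation. The ysE is an absorptive and secretory epithelium that makes serum proteins such as alpha-fetoprotein before and alongside the liver. The fetal liver at this stage is a blood-forming organ in which hepatoblasts lie among many erythroid cells.

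The RNA carried the markers of the labelled tissues. All 5 measured ysE markers, among them Afp and the endocytic receptors Cubn and Lrp2, had higher RPKM in ysE than in both liver libraries, and summed to 37521 RPKM against 1462 and 2653. Erythroid markers summed to 12 RPKM in ysE and to 1235 and 2479 in liver. Hepatocyte markers did not separate the tissues, since 4 of 6 were higher in ysE (sum 1760 RPKM against 510.8 and 1092), with Alb as the main exception at 80.5 RPKM against 357.5 and 766.6. Markers of white blood cells summed to 8.74 RPKM in ysE against 29.4 and 53.2 in liver, but 1 of the 3 measured, Csf1r, was higher in ysE (8.59 against 3.31 and 4.99). Those of mesoderm and endothelium summed to 18.3 against 74.0 and 70.2, with 1 of 6, Col1a1, higher in ysE (7.33 against 3.44 and 3.8). In such bulk samples, fewer cells of a type and less RNA per cell cannot be told apart, and the part of cell mixture in the methylation values was not tested.

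On the 16 chromosomes covered in all 4 libraries (1 to 12, 14, 16, 17 and 18), the methylation calls were sparse. The calls used rested on 4793117 to 7303859 reads at 2565708 to 3209312 CpG positions per library, 1.87 to 2.36 reads each, so reads were summed over 100 kb and 10 kb windows, gene bodies and promoters before a percentage was taken. A 100 kb window then held a median of 235 to 361 reads per library and a 10 kb window 25 to 37. Only calls on the reverse strand entered, since those on the forward strand were methylated in 99.19% to 99.45% of reads in every library. Values for 4 libraries are given below in the order ysE CxF, ysE FxC, liver CxF and liver FxC.

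Across the genome ysE was less methylated than fetal liver. Over 17074 windows of 100 kb with at least 100 reads in each library, the median methylation level was 55.9%, 46.9%, 68.0% and 69.4%. This gave means of 51.4% ± 6.4 (SD, n = 2) in ysE and 68.7% ± 1.0 (SD, n = 2) in liver, and the gap exceeded the differences between same-tissue libraries. The libraries of ysE lay further apart than those of liver, and FxC was the lower of the ysE pair. Window by window, ysE minus liver had a median of -16.8 percentage points, -11.7 within CxF and -22.2 within FxC. The medians were not tested, since the smallest p of an exact two-sided permutation test over 2 and 2 libraries is 0.333. In single windows, edgeR's quasi-likelihood test at an FDR of 5% called 10450 windows (61.2%) lower in ysE and 0 (0.0%) higher. At an unadjusted p under 0.05 the counts were 11347 and 2, and DESeq2 called 9430 lower and 0 higher. Both ysE libraries lay below both liver libraries in 84.4% of windows and above them in 0.24%.

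The count of calls depended on the libraries in the fit, and a fit without 1 library takes its spread from the pair of the other tissue alone. The median difference was -17.6 and -16.2 points without the CxF or the FxC library of liver. Without those of ysE it was -21.4 and -12.4. Without the CxF or the FxC library of liver, 2677 and 1846 windows were called lower. Without the CxF or the FxC library of ysE the counts were 14220 and 8824 lower, with 4 and 36 higher. The fall of the whole genome corresponded to a median log2 odds ratio of -1.05. When each library was first centred on its own median, limma called 2217 windows lower and 822 higher, which counts windows relative to that common fall.

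**Figure D1:**
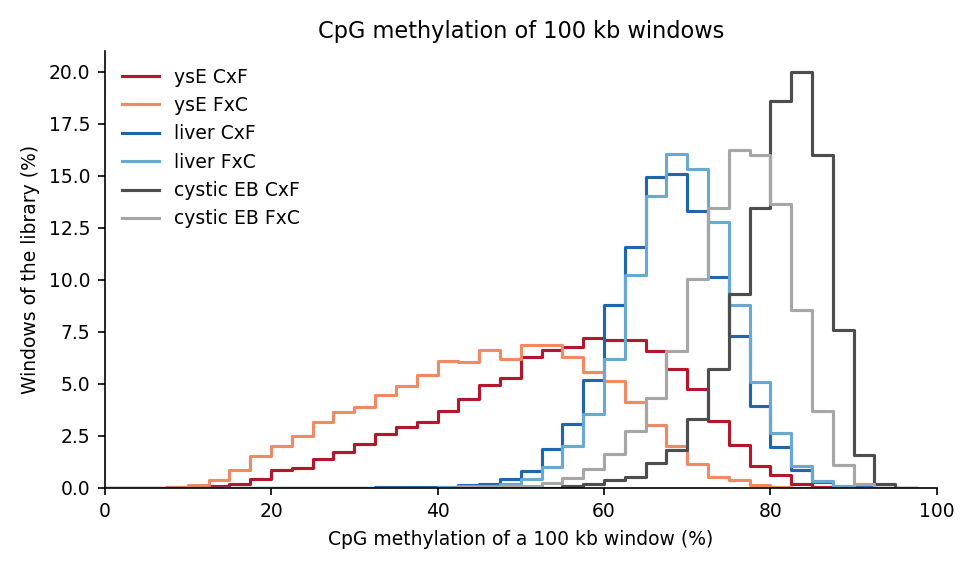
Distribution of CpG methylation (x axis, %) over 100 kb windows with at least 100 reads, as the share of each library's windows (y axis, %), with 1 line per library. The ysE curves are broad and reach below 20%, while both liver curves are narrow and peak near 70% and both cystic EB curves lie to the right of them.

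The fall varied along the genome. Over 100 kb windows the difference ranged from -55.8 to 15.0 points, with 5% of windows below -38.5 and 5% above -2.8, and quartiles of -25.8 and -10.2. Windows with large falls were shared by the crosses. The 5% of windows with the largest falls in CxF (854 windows, median -40.5 points) had a median of -41.1 in FxC, where all windows had -22.2, and all 854 were below 0 there. Those chosen in FxC (median -47.6) had -32.4 in CxF, where all windows had -11.7, and 853 of 854 were below 0. Across the 17074 windows the differences within the 2 crosses had a Pearson's r of 0.667, as a description of windows that share libraries and depth. In the 16860 windows also covered in cystic EBs, the EB medians were 81.9% (CxF) and 76.5% (FxC), above both tissues.

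Libraries cover partly different CpGs, and the difference was also seen at CpGs read in both tissues. At the 678212 positions called in both CxF libraries, methylation was 60.4% in ysE and 72.5% in liver. The 690336 positions shared by the FxC libraries had 51.5% in ysE and 72.3% in liver. Both differences, -12.1 and -20.8 points, were close in size to those of the windows. Between libraries of the same tissue, shared positions differed by 5.71 points in ysE (60.9% and 55.2%) and by -0.842 points in liver (72.4% and 73.3%), as CxF minus FxC. Only 65354 positions were called in all 4 libraries, and these were more methylated throughout, at 70.2%, 64.0%, 78.9% and 80.2%. In the 1106 windows of 10 kb with at least 10 reads at such positions, the median difference was only -2.59 points.

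The lower methylation of ysE was found on every chromosome that could be compared. On each of the 15 chromosomes with at least 100 windows, both ysE medians lay below both liver medians, and the median difference ran from -14.2 points on chromosome 11 to -21.0 on chromosome 4. Chromosome 11 also had the smallest share of 100 kb windows called lower, 51.7%, against 80.6% on chromosome 4. Chromosome 3 (-19.8) and chromosome 16 (-18.8) followed chromosome 4.

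The extreme place of chromosome 4 came with a library that stood apart on it. There the ysE CxF library had a median of 46.4% and ysE FxC 45.1%, whereas on 13 other chromosomes ysE CxF had 55.4% to 58.5% and ysE FxC 44.3% to 48.9%. Liver had 66.5% and 68.1% on chromosome 4, close to its other chromosomes. The CxF library also held 967094 reads on chromosome 4 against 259662 to 539262 on the other 15, and only 10.3% of its reads there were on the forward strand. Within CxF the difference was -19.4 on chromosome 4 and from -9.12 to -13.5 on the others, while within FxC it was -22.9 and within the range of -20.0 to -26.1 of all 15. Chromosome 3 stood apart in ysE FxC, with a median of 42.3% and 18.0% of reads on the forward strand. Whether these values reflect the tissue or the libraries was not tested. Without chromosome 4, 8837 of 15642 windows of 100 kb were called lower and 0 higher.

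**Figure D2:**
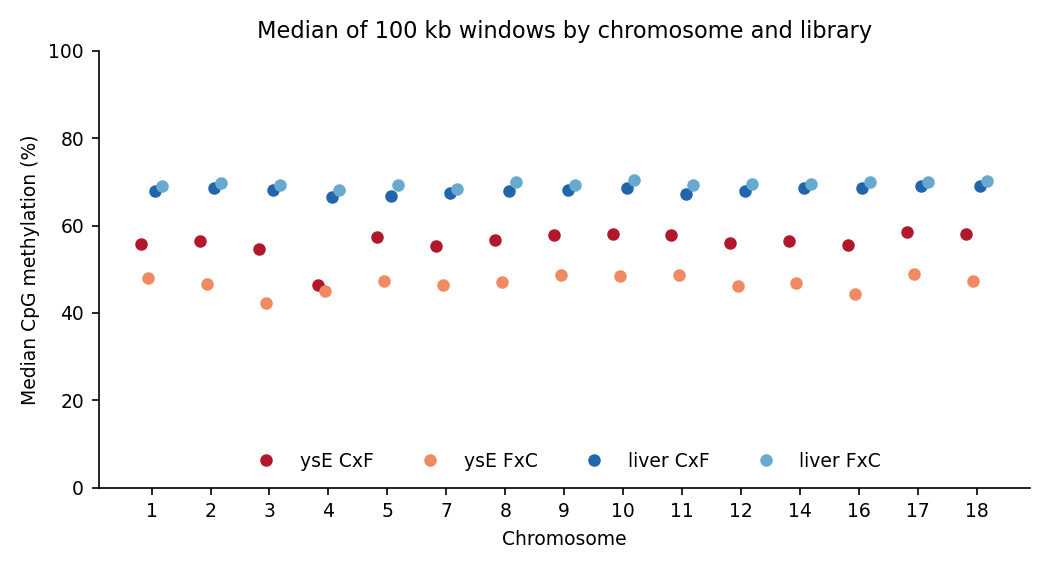
Median CpG methylation of 100 kb windows (y axis, %) on each of the 15 chromosomes with at least 100 windows (x axis), with 1 point per library. Both ysE points lie below both liver points on all 15, and the CxF point of ysE drops to 46.4% on chromosome 4.

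With 61.2% of all 100 kb windows called lower, many called windows are neighbours however the calls are placed. Neighbouring called windows of 100 kb joined into 3397 runs with a median of 0.2 Mb, and 204 runs were 1 Mb or longer. Whether these runs were longer than that share alone gives was not tested. The longest, of 4.2 Mb, was chr4:82400001-86600000, on the chromosome where the ysE CxF library stood apart. The longest elsewhere, of 3.3 Mb, was chr9:27200001-30500000.

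Of the 8 windows named for the largest falls, 4 held no protein-coding gene. By another count, of genes of any kind with a measured transcript, 29.2% of all 100 kb windows held none. The window chr7:94000001-94100000 had 14.0%, 10.5%, 63.6% and 72.6%, a difference of -55.8 points (adjusted p = 2.8e-08; adjusted p-values here and below are Benjamini-Hochberg values from edgeR's test), with no protein-coding gene in it and the nearest, Gm15501, 815825 bp away. Further windows without a gene were chr14:107000001-107100000 (-54.4 points), chr11:38300001-38400000 (-54.0) and chr2:137900001-138000000 (-52.9). Others lay in Epha5, which encodes an ephrin receptor of neurons (chr5:84200001-84300000, -53.9), in Dgkb, a diacylglycerol kinase gene (chr12:38000001-38100000, -53.4), in Pcdh9, a protocadherin gene (chr14:93700001-93800000, -53.3), and at Pdha2, the testis form of a pyruvate dehydrogenase subunit (chr3:141200001-141300000, -54.6). These genes had 0.0 to 0.004 RPKM in ysE and at most 0.378 in liver. In all 8 windows both cystic EB libraries had at least 61.0%.

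The windows at the other end held regulators of development and genes expressed in ysE, and none of the 8 named there was called. Without the CxF or the FxC library of ysE 2 and 4 of them were called higher, and all 8 were with each library centred on its median, by limma. At Tbx3, a T-box transcription factor gene, chr5:119600001-119700000 had 50.9%, 51.9%, 35.9% and 40.3% (13.3 points higher, adjusted p = 0.068). At En2, a homeobox gene of the midbrain and hindbrain, chr5:28100001-28200000 had 44.9%, 48.5%, 39.6% and 28.6% (12.6 points, adjusted p = 0.1). In both windows the tissues did not overlap. The most positive difference of all, 15.0 points at the zinc finger genes Zfp995, Zfp942 and Zfp943 (chr17:21900001-22000000), rested on liver CxF alone, which had 40.7% where the other 3 libraries had 62.9% to 75.5%. At Sdr9c7 and Hsd17b6, genes of steroid and retinoid metabolism, the difference was 9.93 points (adjusted p = 0.13). Windows in Ppfibp2, Mcf2l and Lnx1 (21.0, 6.35 and 8.56 RPKM in ysE) lay 7.66 to 8.49 points above liver, with adjusted p-values of 0.22 to 0.27.

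Where genes were expressed in ysE, its methylation lay closer to that of liver. Windows of 10 kb were sorted by the most expressed gene that overlaps them, in RPKM of E12.5 ysE. Only genes with a measured transcript counted, so in these classes no gene means none of those, and unmeasured genes may lie there. In the 58412 windows with no gene the medians were 51.4%, 41.9%, 67.7% and 69.0%, a difference of -20.1 points. Windows whose top gene was below 0.1 RPKM were alike, with 50%, 39.3%, 66.7% and 68.8% (-21.9 points, 25915 windows). In the 14635 windows with a gene over 10 RPKM the medians were 70.3%, 62.5%, 74.1% and 75.6%, a difference of -8.32 points. From windows with no gene to those with a gene over 10 RPKM, the medians of ysE thus differed far more than those of liver. The classes between, 0.1 to 1 RPKM and 1 to 10 RPKM, had -13.9 and -8.94 points, so that the step lay mainly below 1 RPKM. The gap between the outer classes was 11.8 points, 11 within CxF and 12.8 within FxC.

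**Figure D3:**
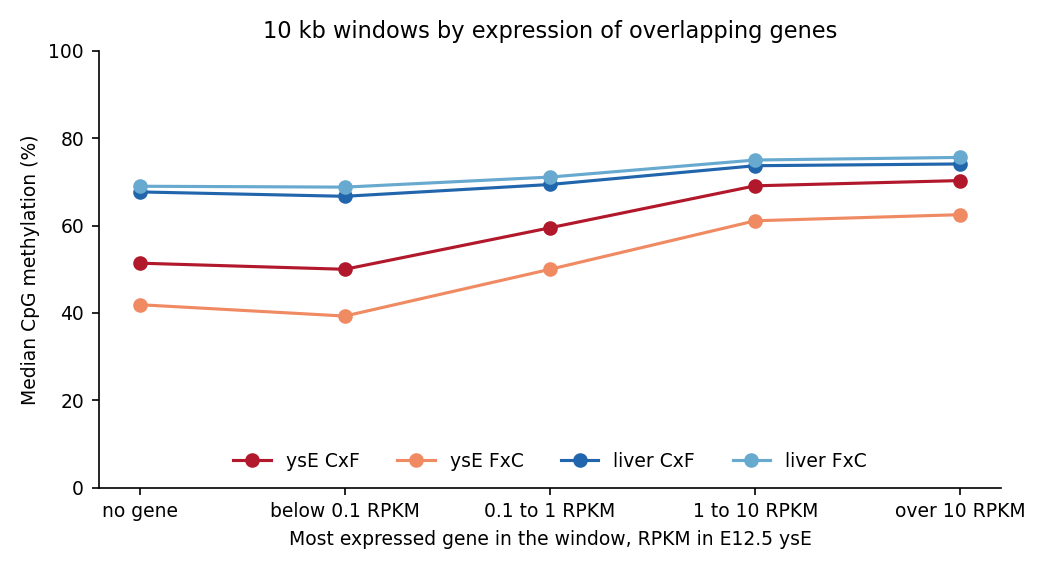
Median CpG methylation of 10 kb windows (y axis, %) by RPKM in E12.5 ysE of the most expressed overlapping gene (x axis, 5 classes), with 1 line per library. The ysE lines rise from 51.4% and 41.9% with no gene (none with a measured transcript) to 70.3% and 62.5% over 10 RPKM. The liver lines rise from 67.7% and 69.0% to 74.1% and 75.6%.

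The same order held for calls in 100 kb windows. Of windows with no gene 81.8% were called lower in ysE, of those below 0.1 RPKM 82.3%, of those from 0.1 to 1 RPKM 58.8%, of those from 1 to 10 RPKM 37.2%, and of those over 10 RPKM 31.6%, against 61.2% of all. Sorting 10 kb windows by liver expression instead gave a gap of 10.0 points, and genes within 50 kb one of 13.8. With only positions called in both libraries of a cross the gap was 8.51 points, and with only the few called in all 4 libraries 0.469.

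Windows with few CpG positions seen had the larger falls, and the relation with expression was seen among windows alike in that number. Positions seen are those called on either strand in any of the 6 WGBS libraries. Their number thus depends on the calls as well as on the sequence. By CpG positions seen, the fifth of 100 kb windows with the fewest (175 to 351) had a median difference of -28.3 points with 83.7% called lower, and the fifth with the most (772 to 1505) -10.9 points with 38.9% called. Among 10 kb windows with 9 to 42 positions seen, those with no gene had 38.9%, 30.0%, 65.0% and 66.7% (-28.7 points). Those with a gene over 10 RPKM had 75.9%, 68.8%, 79.2% and 78.6% (-5.71 points). Among windows with 85 to 267 positions seen the differences were -12.8 points with no gene and -8.62 with a gene over 10 RPKM. The spread between expression classes was thus widest where few positions were seen. The fifth of windows with the largest share of intergenic LINE elements, a class of retrotransposons (24.3% to 76.8% of the window), had a median difference of -26.2 points. The 9465 windows without an H3K4me3 peak of visceral yolk sac had -22.5, and the 7609 with 1 or more had -12.1. Summed over all reads, sequence within 1 kb of a gene start had 27.06%, 23.92%, 35.73% and 38.71%, gene bodies 61.57%, 52.32%, 70.83% and 72.21%, and intergenic LINEs 42.89%, 34.03%, 61.43% and 61.64%. Intergenic LTR elements stayed higher, at 61.9% and 52.47% in ysE and 72.29% and 74.14% in liver.

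In gene bodies ysE lay below liver by less than in the genome as a whole. Over the 7729 protein-coding genes with at least 50 reads in each library, the medians were 65.4%, 57.4%, 71.3% and 72.9%, a difference of -11.3 points (median log2 odds ratio -0.765). Of these bodies 1907 (24.7%) were called lower and 2 (0.0259%) higher in ysE, and the ysE libraries lay wholly below liver in 66.1% and wholly above in 1.5%. Without the CxF or the FxC library of liver, 81 and 44 were called lower, and without those of ysE 3793 and 1635. Of 28 called bodies picked by the naming rules or added to them, 9 and 11 kept the call without the CxF or the FxC library of liver, among those that lost it Ank1, Sptb and Ptprd both times. Long genes had more reads and so passed the minimum more often.

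Gene-body methylation differed with the expression difference between the tissues. RNA-seq called 5626 of 24858 transcripts (22.6%) higher and 5895 (23.7%) lower in ysE than in liver, at an FDR of 5% in a fit in which the single ysE library was taken to vary like the other tissues. Bodies of the 1578 genes with higher RNA in ysE had a median difference of -7.24 points with 8.62% called lower. The 2031 with lower RNA in ysE had -14.0 points with 37.2% called lower. At the extremes, 80 genes over 10 RPKM in ysE and below 1 in liver had 67.5%, 60.7%, 68.0% and 70.6% (-5.19 points, 3.75% called lower), whereas 75 genes below 1 RPKM in ysE and over 10 in liver had 57.7%, 49.6%, 71.9% and 76.5% (-19.6 points, 61.3%). Genes over 10 RPKM in both tissues had -9.3 points, and genes below 0.1 RPKM in both had -20.3 with 51.4% called lower.

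The gene bodies with the largest falls included several neuronal genes and Afp. Afp, the alpha-fetoprotein gene, went against the general relation. It had 35558 RPKM in ysE and 1396 and 2471 in liver, and yet its body had 16.2%, 20.8%, 66.7% and 66.7% (-48.2 points, adjusted p = 4.9e-05). Both cystic EB libraries had 90.5% and 78.0% there. The call at Afp was kept without either ysE library (adjusted p = 0.00013 and 0.00024), and lay nearer the threshold without a liver library (0.041 and 0.05), with a range of 2.3e-06 to 0.05 over all alternatives. Neto1, a gene of glutamate receptor accessory proteins, had 27.6%, 13.4%, 72.2% and 69.4% (-50.3 points, adjusted p = 8.4e-10), and 0.0 RPKM in ysE. Falls of 47.7 to 50 points were also called in Gucy1b1 (a subunit of soluble guanylate cyclase), Nova1 (a neuronal splicing factor), Gpr139 (an orphan receptor of the brain), Lipi (a lipase), Ptchd4 and Gm31606. Of these, Gm31606 was not called without the CxF library of liver, nor Gpr139, with 55 reads in ysE FxC, without the FxC library of liver.

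Of the 2 bodies called higher, Cdkn2a, the locus of a pair of cell-cycle inhibitors, lay on chromosome 4, where the ysE CxF library stood apart. It had 47.4%, 57.8%, 9.18% and 21.6% (37.2 points, adjusted p = 0.00025). Its RNA was higher in ysE as well, with 13.3 RPKM against 0 in both liver libraries. Zic4, a zinc finger gene of neural development, had 36.3%, 27.4%, 9.3% and 8.82% (22.8 points, adjusted p = 0.0046) and hardly any RNA in either tissue. Cdkn2a was no longer called without the CxF library of liver (adjusted p = 0.18), nor Zic4 without that of CxF or FxC (0.14 and 0.21), and over all alternatives the adjusted p ran from 4.8e-05 to 0.18 and from 0.00067 to 0.21. Among the named genes, 8 more with no overlap between tissues, among them the translation factor gene Eif4g1, had differences of 15.9 to 20.5 points and were not called (adjusted p = 0.1 to 0.19).

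**Figure D4:**
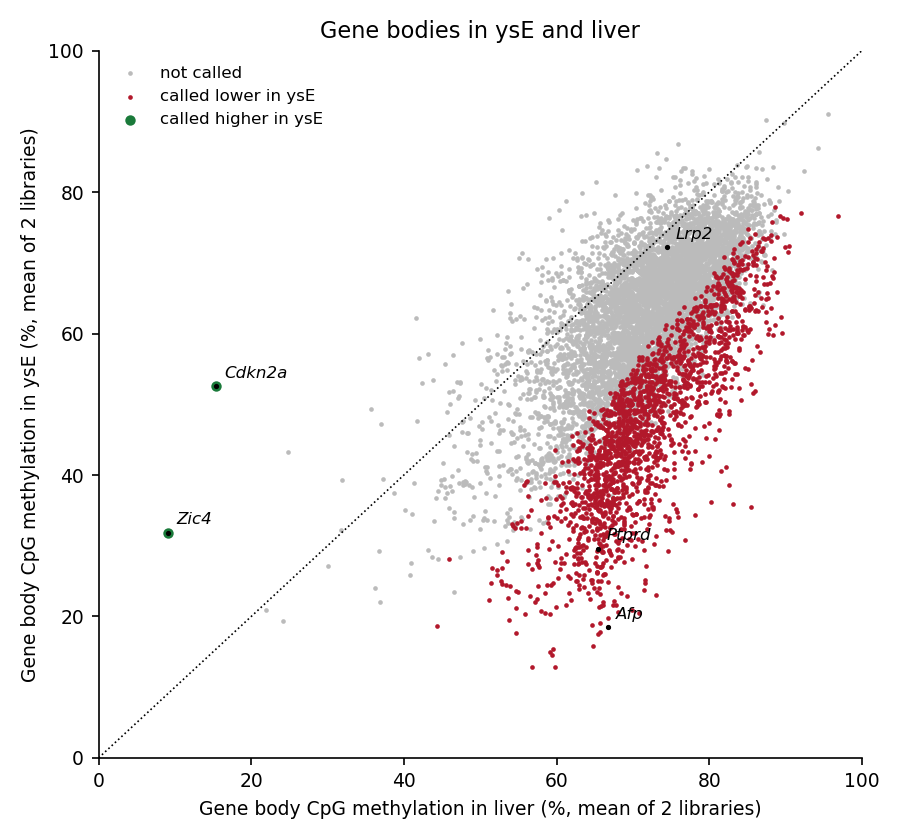
Gene-body CpG methylation in ysE (y axis, %, mean of 2 libraries) against liver (x axis, %, mean of 2 libraries) for 7729 protein-coding genes, 1 point each, in red where called lower in ysE, ringed in green where called higher and grey otherwise, with the dotted line at equal levels and black points for genes labelled by name. Afp lies far below the line, and Cdkn2a and Zic4 are the called genes above it.

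Lists of genes were read beside all gene bodies, of which 24.7% were called lower with a median of -11.3 points. The lists were written with earlier results of these data known, so their counts describe and do not test. Of 7 tested ysE genes 2 were called lower and 0 higher, a share near that of all bodies, with a median of -5.19 points. Apob, which encodes the structural protein of lipoproteins, had 73.1%, 68.1%, 65.8% and 62.5%, above liver in both crosses but not called (adjusted p = 0.51). Lrp2 had 76.5%, 67.9%, 75.4% and 73.5%, and Cubn 69.7%, 64.3%, 72.1% and 67.6%, so that the bodies of the endocytic receptors megalin and cubilin overlapped between tissues. Afp and Slc22a3, an organic cation transporter gene, were the 2 called lower, and Slc22a3 (adjusted p = 0.038) was not called in limma (0.076), with both strands (0.065) or without either liver library (0.34 and 0.5).

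Most erythroid genes were called lower. Of 7 tested 6 were, against 24.7% of all bodies, with a median of -34.4 points, in a comparison where erythroid RNA also differed between the tissues by the sums given above. Ank1, the gene of erythroid ankyrin, had 52.7%, 47.1%, 76.1% and 78.1%, and Rhag, of the Rhesus complex, 40.6%, 31.2%, 86.2% and 80.0%. Sptb, the beta spectrin gene, followed with 52.8%, 46.4%, 77.0% and 79.6%. In these genes both liver libraries lay above the gene-body medians of 71.3% and 72.9%. Without the CxF or the FxC library of liver, 1 and 2 of the 7 were called, and Rhag was not called without liver CxF (adjusted p = 0.052). Tal1, a transcription factor of blood development, was not called, with 26.9%, 11.8%, 28.8% and 19.4% (adjusted p = 0.82). Of 3 hepatocyte genes, with a median of -22.2 points, 2 were called lower, and all these calls turned with the setting. Cps1, a urea cycle gene, was called (adjusted p = 0.0016) but not without either liver library (0.12 and 0.33). Itih2 was called (adjusted p = 0.035) but not without the FxC library of ysE (0.3) or either liver library (0.35 and 0.28), and Apoh was not (adjusted p = 0.069) but was in limma (0.025), with both strands (0.046) and without the CxF library of ysE (0.02).

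Long genes of neural adhesion and synapses were all called lower, 22 of 22 tested against 24.7% of all bodies, with a median of -33.2 points. The list was written with earlier results of these data known, so the count cannot serve as a test. All bodies are also an unlike reference, since long genes hold more reads. Of genes below 0.1 RPKM in both tissues 51.4% were called lower. Nearly all of these calls were lost without either liver library. Such fits take their spread from the ysE pair alone, so the loss cannot show which libraries the calls rested on. Ptprd, a receptor phosphatase gene on chromosome 4, where the ysE CxF library stood apart, had 29.6%, 29.6%, 64.7% and 66.3%. In the other 21 the level in ysE CxF ran from 26.2% to 46.5%. Pooled over the list, methylation was 36.4%, 29.0%, 65.7% and 67.2% on 53040 to 75716 reads per library. So many reads reduce counting error only and do not show how much litters differ. The ysE litters still lay apart, at 36.4% in CxF and 29.0% in FxC. The range of the differences was from -42.5 to -26.5 points. The highest level of RNA among listed genes in ysE was 0.222 RPKM, at Ptprd, against 5.29 and 2.72 RPKM in liver. Cntnap2, of the neurexin superfamily, had 0.182 RPKM in ysE and Lrp1b 0.013, and Lsamp, a cell adhesion gene, had no RNA value.

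In the other lists the share called lower is read beside the 24.7% of all bodies. Of 14 imprinted genes 2 were called lower, Snrpn and Slc22a3, with a median of -7.21 points, and Peg3 (72.0%, 77.6%, 82.6% and 76.9%) and Gnas were not. Snrpn was not called without either liver library (adjusted p = 0.24 and 0.28), and Gnas was called without the CxF library of ysE (0.026). Of 5 germline genes 3 were called lower, with a median of -20.9 points and Sycp1 not called. Tex15 was among the 3 (adjusted p = 0.035) but was not called with both strands (0.067), without the FxC library of ysE (0.36) or without either liver library (0.31 and 0.39). None of 4 housekeeping genes was called (0 lower, 0 higher; median -7.11), nor any of 6 genes of the methylation machinery (median -0.789). Dnmt3a had 66.3%, 63.2%, 59.6% and 66.3% and Dnmt1 67.8%, 67.5%, 80.2% and 79.5%. Eno1, a glycolytic gene, had 60.4%, 65.7%, 79.7% and 52.9%, below liver in CxF and above it in FxC. Of 119 zinc finger genes tested 17 were called lower, a smaller share than of all bodies, with a median of -8.69 points. Zfp207 was among them (adjusted p = 0.028), though not without the CxF library of ysE (0.086) or either liver library (0.23 and 0.36), and Zfp568 was not. Of 34 protocadherin cluster genes 14 were called lower (median -9.22 points). The 14 were all of the alpha cluster, at -35.4 to -21.4 points, and no tested gene of the gamma cluster was called (-11.2 to -5.47 points). Genes of a cluster, such as Pcdha1 and Pcdha2, overlap and share reads.

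Clustered gene families are short and few passed the read minimum. Of 1019 olfactory receptor genes on these chromosomes only Olfr183 and Olfr1393 were tested. Olfr183 was called lower, but not without the FxC library of ysE or without either liver library. Pooled over all 1019, methylation was 42.4%, 28.4%, 65.1% and 68.0%. Vomeronasal receptor genes pooled to 40.5%, 31.9%, 59.2% and 61.9%, with 0 of 7 tested called (Vmn2r1 and Vmn2r29 among them). Hox genes were unlike these. Pooled over 30 genes on 554 to 1402 reads they had 38.4%, 32.3%, 30.0% and 32.5%, so the tissues overlapped, and of the 2 tested, Hoxb3 and Hoxd3, neither was called. Keratin genes pooled to 54.2%, 51.5%, 65.6% and 72.9%, with neither Krt23 nor Krt10 called. Of 64 ribosomal protein genes 0 passed the minimum, and pooled they had 42.6%, 45.9%, 53.2% and 57.7%.

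Small windows revealed places where ysE was more methylated than liver. Of 133572 windows of 10 kb with at least 10 reads in each library, 4180 (3.13%) were called lower in ysE and 36 (0.027%) higher. Over all of them the medians were 57.1%, 47.6%, 69.2% and 70.7%, and ysE libraries lay wholly below liver in 53.1% and wholly above in 3.45%. The 36 windows lay on 14 chromosomes, 8 of them on chromosome 2, and had median levels of 46.0%, 46.6%, 7.5% and 6.49%. In 32 of the 36 both liver libraries were under 20%, though picking windows for their own difference favours low values in liver. The windows called lower had the opposite make-up, with 22.5%, 18.2%, 77.6% and 78.4%. Of the 34 higher windows with enough reads in cystic EBs, 33 (97.1%) had both EB libraries above both liver libraries, with medians of 52.7% and 61.5%. This was so in 43.8% of all windows with enough EB reads, and in 93.3% of those in which both liver libraries were under 20%.

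Many genes at these windows encode developmental transcription factors. By gene symbol families chosen after these windows had been seen, 27 of the 36 (75%) lay in or next to a gene of such a family. The count cannot test families chosen in this way. The share was 62.8% of the 172 windows in which both liver libraries were under 20%, and 0.865% of all windows. Among all windows near such genes 27 (2.34%) were called higher and 11 (0.952%) lower. Of the 36, 18 (50%) overlapped an H3K4me3 peak of visceral yolk sac, against 9.91% of all and 51.7% of those 172, which include 32 of the 36. A gene over 1 RPKM in ysE lay in 22.2% of the 36 and in 28.2% of all windows. The largest difference, 60.7 points, was at Tfap4, a helix-loop-helix factor (chr16:4550001-4560000; 54.1%, 80.0%, 7.69% and 5.0%; adjusted p = 0.023). On 37, 30, 26 and 20 reads the exact 95% binomial intervals were 36.9% to 70.5%, 61.4% to 92.3%, 0.946% to 25.1% and 0.127% to 24.9%, which cover counting error only. With Tbx3 as the nearest gene, 40534 bp away, so that it is not among the 27, chr5:119620001-119630000 had 75.7%, 61.1%, 0.0% and 16%, where 0 of 35 reads allows up to 8.57% (by the limit of 3 counts used here for every 0; the exact interval reaches 10%). Both intervals of ysE lay above those of liver at Tfap4 and at this window.

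Homeobox, forkhead, GATA, Pax and Zic genes were all represented. The Foxa1 window, at a forkhead factor of endoderm (chr12:57540001-57550000, shared with Ttc6), had 60.0%, 48.7%, 10.6% and 0.0%, where 0 of 25 reads allows up to 12%. Gata4, which acts in visceral endoderm and heart, had 53.8%, 49.0%, 12.1% and 13.2% at chr14:63240001-63250000 and was expressed in both tissues at 2.86 and 1.94 RPKM. Tbx15, of the T-box family, had 52.3%, 58.3%, 4.26% and 3.7%. These 3 windows had an H3K4me3 peak of visceral yolk sac. Others included Nr2f2, Six3, Lhx8, Lhx9, Gsc, Nkx2-2, Nkx6-1, Gata3, Tbx5, Zic2, Zic4, Otx1, Otx2, Ebf2, Pax3, Pax6, Pax9, Dlx1, Foxd3 and Sp9, with the smallest difference, 10.7 points, at Sp9. Outside these families, windows in genes expressed in ysE were also called higher. Cdkn2a had 60.0%, 46.7%, 2.78% and 6.67% at chr4:89280001-89290000, and Myo6, a myosin of the endocytic pathway with 32.9 RPKM in ysE and 4.05 in liver, had 82.4%, 67.4%, 18.4% and 36.2%. The remaining windows lay at Vgll2, at Kdm6b and its neighbours Cyb5d1, Naa38 and Tmem88, and nearest to Kiz (15825 bp) and Hand2 (5484 bp). Npepl1, an aminopeptidase gene, was the window with the highest levels, at 92.7%, 97.1%, 61.9% and 59.1%.

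**Figure D5:**
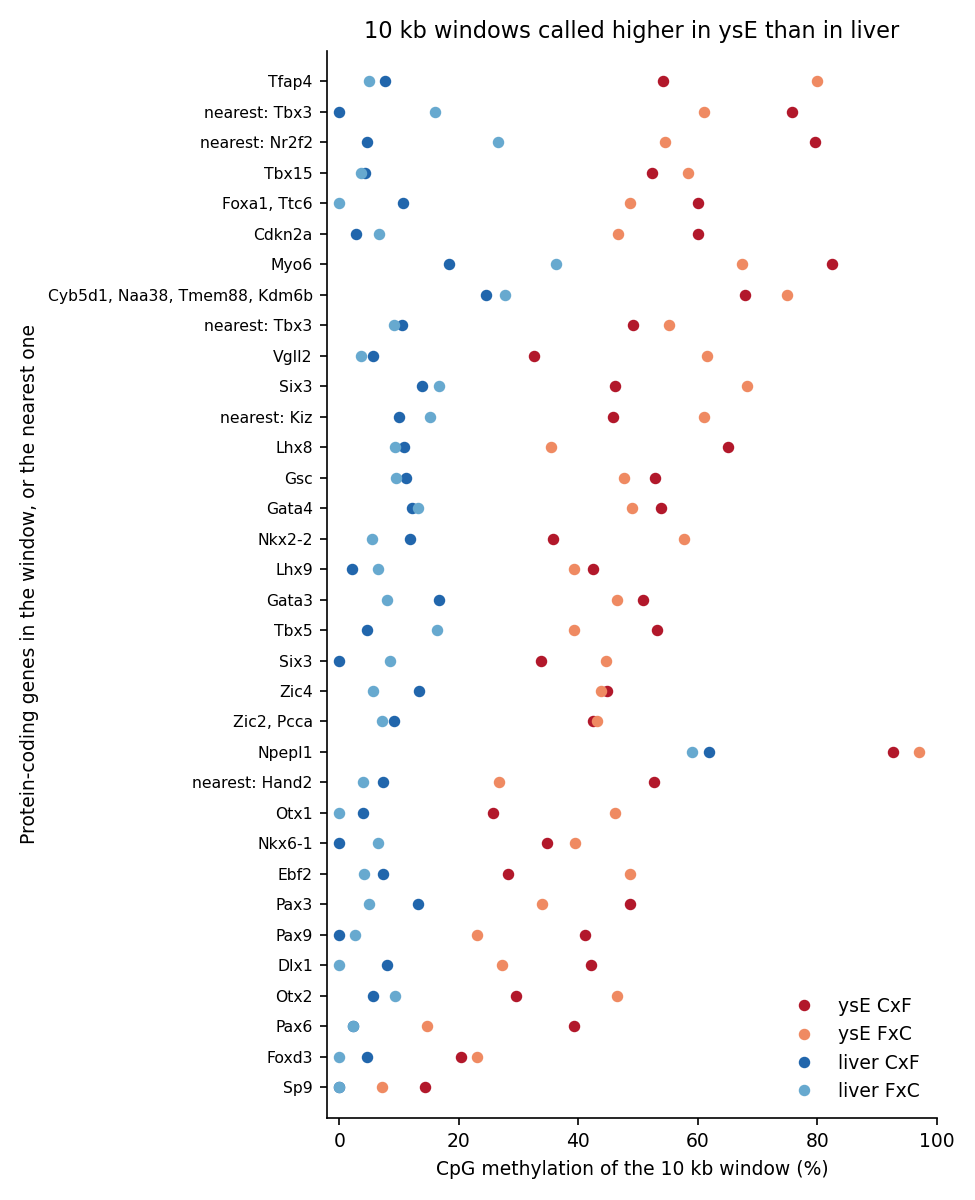
CpG methylation (x axis, %) of 34 of the windows of 10 kb called higher in ysE, 1 row each by the protein-coding genes in the window or the nearest one (y axis), with 1 point per library. In every row both ysE points lie to the right of both liver points, and in 30 rows both liver points are under 20%.

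The calls in 10 kb windows needed all 4 libraries, since with any 1 of them left out 0 windows were called in either direction. The unadjusted p was under 0.05 for 413 higher windows in the full fit and for 248 to 1030 with 1 library left out. For lower windows these counts were 32060 and 16573 to 33500. Limma called 20 windows higher in place of 36. When each library was centred on its median it called 0 in either direction, with 9304 lower and 6006 higher at an unadjusted p under 0.05. The windows were also picked for their own difference, which selects low values in liver. When 10 kb windows were instead picked for a level under 20% in 1 liver library, whatever their other levels, the second liver library had not entered the choice. By liver CxF, 759 windows had 40.7% in liver FxC and 34.5% and 29.2% in ysE, with both ysE libraries above liver FxC in 27.5% and below it in 48.1%. By liver FxC, 506 windows had 33.3% in liver CxF and 33.3% and 25.9% in ysE, with 37.7% above and 41.3% below. Windows picked in this way thus were of both kinds, and more often those with ysE below. Over all 10 kb windows ysE lay wholly above liver in 3.45% and wholly below in 53.1%. Those shares are set against both liver libraries and so are not measured alike. Over all 1155 windows near the listed factor genes the medians were 52.9%, 44.8%, 60.8% and 63.0%, a difference of -7.68 points. The 565 of them with the most CpG positions seen had 48.3%, 41.2%, 48.5% and 50.8% (-2.24 points), against -11.1 for the 26150 other windows with as many seen.

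Promoter sequences are shown for genes in windows called higher and for genes whose bodies fell, to set the CpG content of the starts beside these levels. Each is the 250 bases before the start of the RefSeq transcript on build GRCm38.p6, 5′ to 3′ on the strand of the gene, with every CpG in capitals. They are Foxa1 (chr12:57546112-57546361, minus strand) and Six3 (chr17:85620584-85620833, plus strand) from windows called higher, and Gucy1b1 (chr3:82074712-82074961, minus strand) and Afp (chr5:90490464-90490713, plus strand) from bodies called lower.
Foxa1: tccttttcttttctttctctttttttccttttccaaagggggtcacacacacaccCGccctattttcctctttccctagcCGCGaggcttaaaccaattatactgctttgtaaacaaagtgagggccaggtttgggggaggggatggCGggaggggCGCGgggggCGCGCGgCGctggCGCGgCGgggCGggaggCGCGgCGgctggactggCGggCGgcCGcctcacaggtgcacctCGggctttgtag
Six3: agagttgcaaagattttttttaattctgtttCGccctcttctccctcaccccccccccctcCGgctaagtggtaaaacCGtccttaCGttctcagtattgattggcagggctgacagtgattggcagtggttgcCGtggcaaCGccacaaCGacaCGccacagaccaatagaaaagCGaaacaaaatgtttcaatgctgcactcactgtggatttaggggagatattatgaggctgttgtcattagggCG
Gucy1b1: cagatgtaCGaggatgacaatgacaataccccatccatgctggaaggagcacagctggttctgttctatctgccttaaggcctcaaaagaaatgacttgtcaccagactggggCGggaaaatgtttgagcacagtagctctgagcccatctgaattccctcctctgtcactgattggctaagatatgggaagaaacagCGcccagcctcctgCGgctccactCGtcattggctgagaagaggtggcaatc
Afp: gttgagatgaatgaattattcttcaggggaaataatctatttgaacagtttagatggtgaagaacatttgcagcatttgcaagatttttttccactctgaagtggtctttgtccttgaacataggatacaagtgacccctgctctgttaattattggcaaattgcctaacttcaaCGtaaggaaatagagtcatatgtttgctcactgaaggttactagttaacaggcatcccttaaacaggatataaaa
Foxa1 held 21 CpGs and Six3 10, while Gucy1b1 held 5 and Afp only 1. Promoters not shown overlapped more, with 15 in Vgll2 and 7 in Cdkn2a, from windows called higher. From bodies called lower, Nova1 held 11 and Ptchd4 4. The median over all 32851 promoters of the table was 6 CpGs, and the 19 promoters inside windows called higher had a median of 10, against 14 for all bodies tested and 10 for bodies called lower. Over the 250 bases of Foxa1, methylation was 0.0% in every library, on only 2 to 10 reads, where 0 of 10 reads allows up to 30.0%. Over the 250 bases of Six3, methylation was 16.7%, 0.0%, 7.14% and 7.14% on 14 to 28 reads. The exact interval of ysE CxF, 3.58% to 41.4%, spans both liver values, and the 0 of 26 reads in ysE FxC allow up to 11.5%. Gucy1b1 had 50%, 9.09%, 57.1% and 68.4% on 4 to 19 reads. At the single CpG of Afp the levels were 0.0%, 32.0%, 45.8% and 66.7% on 10 to 25 reads that may not be independent molecules. The exact intervals of ysE FxC (14.9% to 53.5%) and liver CxF (25.6% to 67.2%) overlapped, and 0 of 10 reads allows up to 30.0%.

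Promoters, taken as 1 kb to either side of a gene start, could be tested at only 802 of 18259 starts, of which a gene may have several. Their medians were 18.8%, 18.8%, 28.3% and 33.3%, a difference of -6.82 points, and both ysE libraries lay below both liver libraries in 29.6% and above in 7.36%. With edgeR 0 promoters (0.0%) were called in either direction, while 39 had lower and 3 higher levels at an unadjusted p under 0.05. Limma also called 0, with 82 and 12 at an unadjusted p under 0.05. The 644 with an H3K4me3 peak of visceral yolk sac within 1 kb had mean levels of 12.4% ± 0.09 (SD, n = 2) in ysE and 22.0% ± 2.8 (SD, n = 2) in liver, and the 158 without had 62.3%, 58.6%, 75% and 74.5%. The peaks were measured in a tissue that holds ysE and not in liver. The largest difference was at Il22ra1, a cytokine receptor subunit gene on chromosome 4, where the ysE CxF library stood apart. It had 0.0%, 10.0%, 69.2% and 93.8% on 10 to 20 reads (adjusted p = 0.63) and 17.8 RPKM in ysE against 0.255 in liver. The 0 of 20 reads in ysE CxF allow up to 15.0%. Next came Rbm26, Selp, Slc2a2, Zcchc17, Pip5k1c, Homer2, Zfp202, Pcm1 and Spata48, at -71.6 to -56.9 points. In the other direction Rcan1, Bpnt1, Pclaf, Tdgf1, Zfp57, Spire2, Hopx, Map10, 2410004B18Rik and Csnk2b had differences of 31.8 to 53.7 points. Zfp57, a zinc finger factor that protects methylation at imprinted loci, had 88.9%, 100%, 65.0% and 46.2%.

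RNA of the methylation machinery was measured in the same tissues. Dnmt1 had 51.2 RPKM in ysE and 96.2 and 113.6 in liver (log2 fold change -0.999, adjusted p = 0.0482), and Dnmt3a 11.7 against 24.8 and 19.3 (-0.888, adjusted p = 0.0288), and both were called lower in ysE. These calls rest on 1 ysE library, made with another protocol than the 2 of liver, so the spread of ysE was not measured and protocol and tissue cannot be told apart. Uhrf1, which brings Dnmt1 to newly replicated DNA, had 15.6 against 59.2 and 77.2 RPKM and lay at the threshold (-2.09, adjusted p = 0.05). No call was made for Dnmt3b, Dnmt3l, Tet1, Tet2, Tet3 and Tdg (adjusted p = 0.0614 to 0.961).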

How the data were processed

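WGBS DNA had been extracted with TriReagent, and libraries were made with a TruSeq protocol with bisulfite conversion before amplification. The authors aligned all reads with GSNAP to mm10, called CpG methylation with BisSNP set for low coverage with the known FVB and CAST SNPs, and deposited for each CpG and strand the percent of methylated reads and the read count behind it. They deposited RNA-seq as counts and RPKM per RefSeq transcript, and H3K4me3 peaks called with MACS 1.4.2 on pooled tissue of 1 experiment. Each peak carries the score that the authors' MACS run gave it against input DNA, which was not used here.

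Samples were grouped by their labels. Methylated reads were taken as percent times reads, rounded, and every call fell within 0.06 reads of a whole number. Only reverse-strand calls were used, because forward-strand calls were almost all methylated, also inside H3K4me3 peaks. Reads were summed over 16 chromosomes in windows of 10 kb and 100 kb with at least 10 and 100 reads in each library, gene bodies with at least 50 and promoters with at least 10. Chromosomes 13, 15, 19, X and Y were not analysed here. Genes and sequences came from RefSeq tables of GRCm38.p6, the assembly of mm10. For 1947 genes without a start in these tables the promoter was placed by an H3K4me3 peak at 1 end.

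Methylated and unmethylated reads were fitted with library effects in edgeR 4.0.16 (R 4.3.3), and the tissue term was tested with the quasi-likelihood test and Benjamini-Hochberg adjustment over all features of a kind at an FDR of 5%. With 2 pooled litters a tissue, p-values measure only the spread between these libraries. RNA counts were fitted over all 11 RNA-seq libraries with TMM and edgeR's filter on low counts. The script was tested on simulated data in which a minority of features differed and no library was shifted as a whole, unlike in these data. DESeq2 1.42.0 and limma 3.58.1 were the other tools. Tables were made with Python 3.11.15, numpy 2.4.6, pandas 2.3.3, scipy 1.17.1 and matplotlib 3.10.9. Binomial intervals are exact (Clopper-Pearson), and reads without molecular identifiers and several CpGs on 1 read are not independent, so intervals and limits cover counting error only.

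Named windows were the 8 largest falls without overlap between tissues and the 8 least negative or most positive differences among 100 kb windows, at most 1 per 2 Mb. Named genes were the 10 largest without overlap in each direction, for bodies and for promoters, at most 1 per 500 kb, and 2 to 4 members per list by ysE expression or, where none exceeded 1 RPKM, by length. Some genes that these rules pick are not reported here. Further genes were named after their values had been seen, namely Slc22a3, Tal1, Cps1, Snrpn, Rhag and the genes at 10 kb windows called higher. The members and lists were chosen with earlier results of these data known. Same-cross libraries did not deviate together (r = 0.0268 over 100 kb windows), so the crosses were not treated as pairs. Alternatives were other read minimums, tools, strands and CpG sets, a block for the cross, and leaving out a library or chromosome 4.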

Additional observations from a re-analysis of the deposited data

Results flagged for a closer look

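Calls on the forward strand entered only the alternative with both strands. Inside H3K4me3 peaks of visceral yolk sac, forward-strand reads were methylated in 99.05% (ysE CxF), 98.78% (ysE FxC), 99.14% (liver CxF) and 99.28% (liver FxC), whereas reverse-strand reads there were methylated in 17.55%, 15.9%, 26.47% and 29.28%. These values drew attention because a signal near saturation appeared on a strand left out of the comparisons, other than that alternative, at places where the other strand was mostly unmethylated. On either strand at least 99.79% of the calls inside RefSeq promoter sequences lay at a CpG of the reference. The forward strand held 30.4%, 28.0%, 33.9% and 37.2% of the calls of the libraries. Groups of 2 libraries are too small for an outlier test.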

How the results depend on the processing

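The fall in ysE kept its direction under every alternative run, with a median 100 kb difference of -12.4 to -21.4 points with 1 library left out, -15.4 with both strands, and both ysE libraries below liver on 15 of 15 chromosomes. Counts moved more. For 100 kb windows, a minimum of 200 reads called 4563 lower, limma 1 higher, centred limma 2217 lower and 822 higher, and with 1 library left out 1846 to 14220 were lower and 0 to 36 higher. For 10 kb windows, a minimum of 20 reads called 1034 lower and 17 higher, limma 20 higher, both strands 7623 lower, chromosome 4 left out 2626 lower, and centred limma, positions called in all 4 libraries (1023 windows) and each fit with 1 library left out 0 lower and 0 higher. For gene bodies, a minimum of 20 reads called 13 higher and of 100 reads 0, both strands 6, chromosome 4 left out 1, and with 1 library left out 44 to 3793 were lower and 0 to 13 higher. At positions called in all 4 libraries the median 10 kb difference was -2.59 points (1106 windows) and the expression gap 0.469, too few windows of 100 kb passed to be run, and the cause was not tested. The expression gap was 10.0 with liver expression, 13.8 with genes within 50 kb, 8.51 at positions of both libraries of a cross and 10.9 to 13.5 with 1 library left out. Promoters gave 0 calls throughout, and transcript counts stayed within 1.5 times.

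The replicate block for the cross called 6335 windows of 10 kb lower, 8433 of 100 kb and 1224 gene bodies, and lost the calls at Itih2 (adjusted p = 0.051), Slc22a3 (0.099), Tex15 (0.071) and Zfp207 (0.055). Of 527 alternatives for 56 gene bodies, 452 kept their side of the threshold, 47 lost and 8 gained it, and 20 turned sign, none of these called: on the log2 odds scale, with 1 library left out Dnmt3a ran from -0.0941 to 0.315, Eno1 from -1.21 to 0.583, Gnas from -1.02 to 0.197, Lrp2 from -0.457 to 0.169, Hoxb3 from -0.634 to 0.069, Hoxd3 from -0.63 to 0.834, Krt10 from -1.67 to 0.783, Pkm from -0.346 to 0.389, Tal1 from -1.16 to 0.289, Vmn2r1 from -0.566 to 0.16 and Krt23 from -0.633 to 0.0745, and Hoxd3 was 0.0358 in the block and 0.084 in limma, and Pkm 0.00967, 0.0168 and, at 20 reads, 1.58e-05. For the 36 higher windows 235 of 426 alternatives lost the call. With 1.87 to 2.36 reads per position, most single CpGs could not be compared.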

Other observations

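Cystic EBs, which belong to neither tissue, had higher window medians than liver and were read here only beside the values of ysE and liver. Intergenic LINE elements had 75.56% (CxF) and 69.38% (FxC) in EBs. In the 172 windows of 10 kb in which both liver libraries were under 20%, EB medians were 52.6% and 47.8% (over the 164 windows with enough EB reads), and those of ysE 29.9% and 25%, in windows chosen for their low liver levels. Not all higher windows were methylated in EBs. At Nkx2-2, a homeobox gene of the ventral neural tube, EBs had 7.32% and 17.1% where ysE had 35.7% and 57.7%, and at Otx2, a head homeobox gene, 10.1% and 14.3% where ysE had 29.6% and 46.5%.

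On chromosome 6 liver CxF had only 71096 reverse-strand reads, with 65.7% of its reads on the forward strand, so only 22 windows of 100 kb passed there. Their medians were 68.0%, 61.8%, 76.7% and 74.8% in the order ysE CxF, ysE FxC, liver CxF and liver FxC.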
